A study of Homo sapiens with 18 samples.

Results

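A set of 10 genes that mark astrocytes and stem-like glioma cells was followed in U87, an established human glioblastoma line that the labels describe as glial cells with no genetic modification. They were chosen by name: GFAP, S100B, SLC1A3, GJA1, GLUL, CLU, NES, SOX2, SOX9 and NFIA are 10 of the 60675 gene entries in each deposited table, and each name matched 1 entry. U87 cells were given ethanol, the vehicle, or 100 nM of a rexinoid once for 24 h, and RNA depleted of ribosomal RNA was sequenced. The 18 libraries form 6 groups of 3, given ethanol, the approved rexinoid bexarotene, or a compound known only by its code (A34, A41, A80, A98). For A98 the code on the tables differs from that in the labels; the labels were followed, so which compound those values belong to is uncertain. All groups are the same cell line in serum-containing medium, with no non-malignant astrocytes and no stem cell culture beside them. Nothing in the labels ties the 3 libraries of a treatment to separate cultures, and the p-values therefore cover only library spread, which may be technical.

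Astrocytes are the glial cells that take up glutamate, buffer ions, couple to each other through gap junctions and support neurons. Glioma cells keep some astroglial genes and lose others, and glioma cells that form tumours carry neural stem cell genes, among which SOX2 and nestin are widely used. Rexinoids bind the retinoid X receptors, which act as partners of the retinoic acid receptors and other nuclear receptors, and retinoic acid is a known inducer of neural and glial differentiation, and the comparisons here ask whether the compounds moved these markers.

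The promoters of NES and SOX2 are shown because the hexamer AGGTCA, the core sequence that nuclear receptor dimers recognise, stood in both, while the levels of the 2 genes lay far apart. Sequences are from RefSeq on GRCh38.p14, on the gene's strand and 5′ to 3′, and end at the last base before the gene in GENCODE 29, which starts SOX2 1 base ahead of the deposited tables; capitals mark the match, which reads TGACCT because it lies on the opposite strand.
NES promoter, chr1:156677408-156677657, minus strand: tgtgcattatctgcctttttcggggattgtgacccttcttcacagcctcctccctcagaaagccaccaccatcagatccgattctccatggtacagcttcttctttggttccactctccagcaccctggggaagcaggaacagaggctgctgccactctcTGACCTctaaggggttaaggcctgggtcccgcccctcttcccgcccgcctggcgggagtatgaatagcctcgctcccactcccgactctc
SOX2 promoter, chr3:181711675-181711923, plus strand: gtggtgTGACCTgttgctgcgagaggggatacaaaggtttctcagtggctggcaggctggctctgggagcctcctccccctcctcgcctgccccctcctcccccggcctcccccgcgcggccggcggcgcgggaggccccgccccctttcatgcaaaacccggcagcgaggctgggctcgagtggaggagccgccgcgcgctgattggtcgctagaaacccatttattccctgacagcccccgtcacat
The match began 90 bases before the gene in NES and 243 bases before it in SOX2. The SOX2 stretch had 68.7% G and C and 20 CpG sites in 249 bases, against 58.0% and 8 in the 250 bases of NES. Over 35116 RefSeq windows of 300 bases (250 before a start and 50 after it), searched on both strands, 13.8% held AGGTCA. Of the genes studied here, 6 had at least 1 window in that table (NES, SOX2, SLC1A3, GJA1, GLUL and NFIA). SLC1A3, GLUL and NFIA had more than 1. A gene was counted for a motif if any of its windows held it, so such genes are not on a par with the share of single windows. A direct repeat of AGGTCA with 1 base between its copies, found in 0.0228% of all windows, was in none of the 6 genes. Further motifs searched on both strands were TATAAA (11.5% of all windows, none of the 6), CCAAT (34.6%; GLUL, NFIA, SLC1A3 and SOX2), GGGCGG (15786 windows; all of the 6 but GJA1), TGACTCA (4.95%; GJA1 and SLC1A3) and TTCC and GGAA 1 base apart (1.15%; SLC1A3). A match is a description of the letters and not of receptor binding, which was not measured. No sequence is shown for CLU, GFAP, S100B or SOX9.

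Levels are given as TPM, the share of transcripts that belong to a gene, which is per length of transcript and so can be compared between genes. TPM was divided by a factor for each library (median of ratios) because 3 libraries were rich in ribosomal RNA: it held 56.1% of TPM for A41 replicate 2, 44.9% for bexarotene replicate 1 and 35.5% for ethanol replicate 2, and at most 4.44% elsewhere. The result is called scaled TPM. Aligned sequence came to between 1.31 and 3.89 gigabases a library. Means are followed by the SD over 3 libraries. In bulk RNA, fewer cells of a type and less RNA per cell cannot be told apart.

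The set split into 7 expressed genes, GFAP near the limit of 1 TPM, and 2 genes at or near 0. CLU had a mean of 198 scaled TPM over the 18 libraries (lowest 165, median 190, highest 296). GJA1 averaged 68.8 (56.8 to 78.8), SLC1A3 20.8 (17.5 to 26.0), SOX9 11.5 (8.68 to 16.6), GLUL 9.91 (7.31 to 14.1), NES 7.66 (6.37 to 9.48) and NFIA 3.82 (2.26 to 7.06). GFAP averaged 0.783 (0.209 to 1.60), SOX2 0.0152 and S100B 0.00965. The order CLU, GJA1, SLC1A3 held in 18 of 18 libraries with no overlap of their ranges, and SLC1A3 lay above SOX9 in 18 of 18. SOX9 and GLUL could not be ordered beyond their spread, with SOX9 higher in 12 of 18 libraries, and the ranges of GLUL and NES (GLUL higher in 15 of 18) and of NES and NFIA (NES higher in 17 of 18) overlapped. NFIA was above GFAP in 18 of 18 libraries by 4.87-fold in the mean, and GFAP above SOX2 in 18 of 18. Among the 18269 genes tested, 97.4% had a lower mean than CLU, 91.7% than GJA1, 72.7% than SLC1A3, 59.0% than SOX9 and 9.13% than GFAP.

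**Figure D1:**
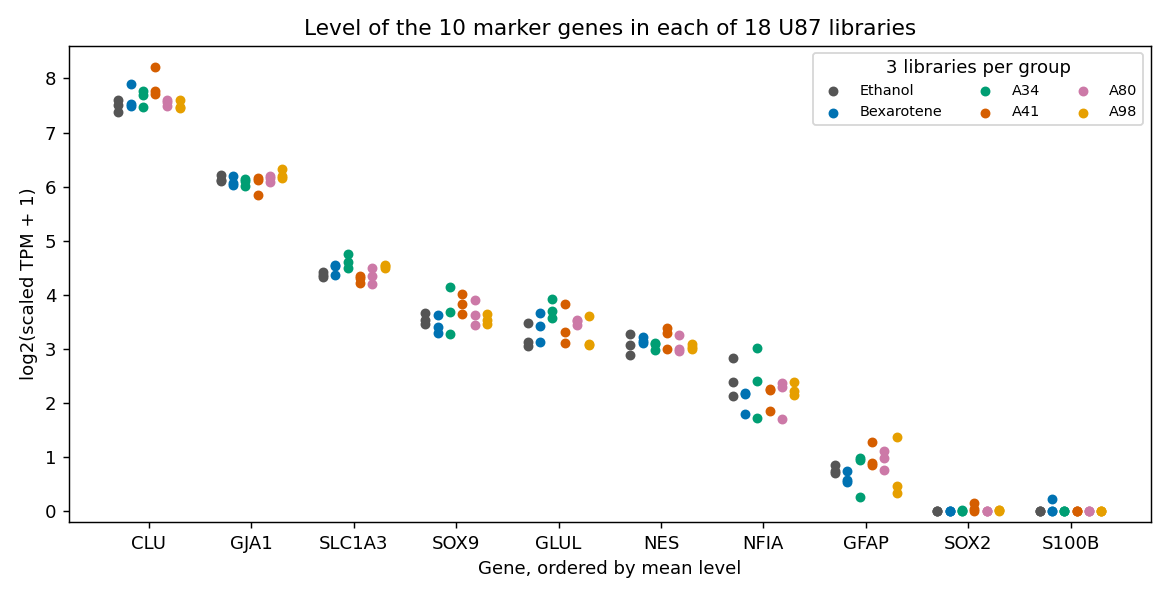
The vertical axis is log2(scaled TPM + 1) and each point is 1 library, coloured by treatment, for the 10 genes ordered by mean level. CLU lies between 165 and 296 scaled TPM, and SOX2 and S100B lie at or near 0 in every group.

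Astrocyte markers were expressed only in part, and there were no astrocytes to compare them with. Of 6 astrocyte markers, GJA1 and SLC1A3 were expressed, GFAP was at 0.783, and the aldehyde dehydrogenase ALDH1L1 (0.473), the glutamate transporter SLC1A2 (0.432) and the water channel AQP4 (0.0473) stayed under 1 scaled TPM in all 18 libraries. Of a list of 20 astrocyte genes outside the 10 markers, which holds those last 3, 8 passed the filter for testing and 12 had a mean under 1. VIM, a filament protein of astrocytes and of mesenchymal cells, was the most abundant at 4035, followed by S100A6 at 2813, CST3 at 70.2 and ALDOC at 27.9, while HEPACAM was listed at 0 in 16 libraries and GJB6 in 13. Markers of other cell types were mixed within each list. Of 6 neuronal genes TUBB3 averaged 68.6, SNAP25 14.1 and SYT1 3.06, while RBFOX3, STMN2 (0.0277) and NEFL (0.0136) were under 1. Of 6 microglia and leukocyte genes CD68 averaged 176 and CSF1R 12.3, while PTPRC (0.0571) and the other 3 were under 1. The means above 1 in the remaining lists were MBP of the oligodendrocyte lineage at 1.23, the endothelial KDR at 1.87 and TEK at 1.65 (the endothelial cadherin CDH5 was at 0.0640), and the epithelial KRT8 at 1.4.

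**Figure D2:**
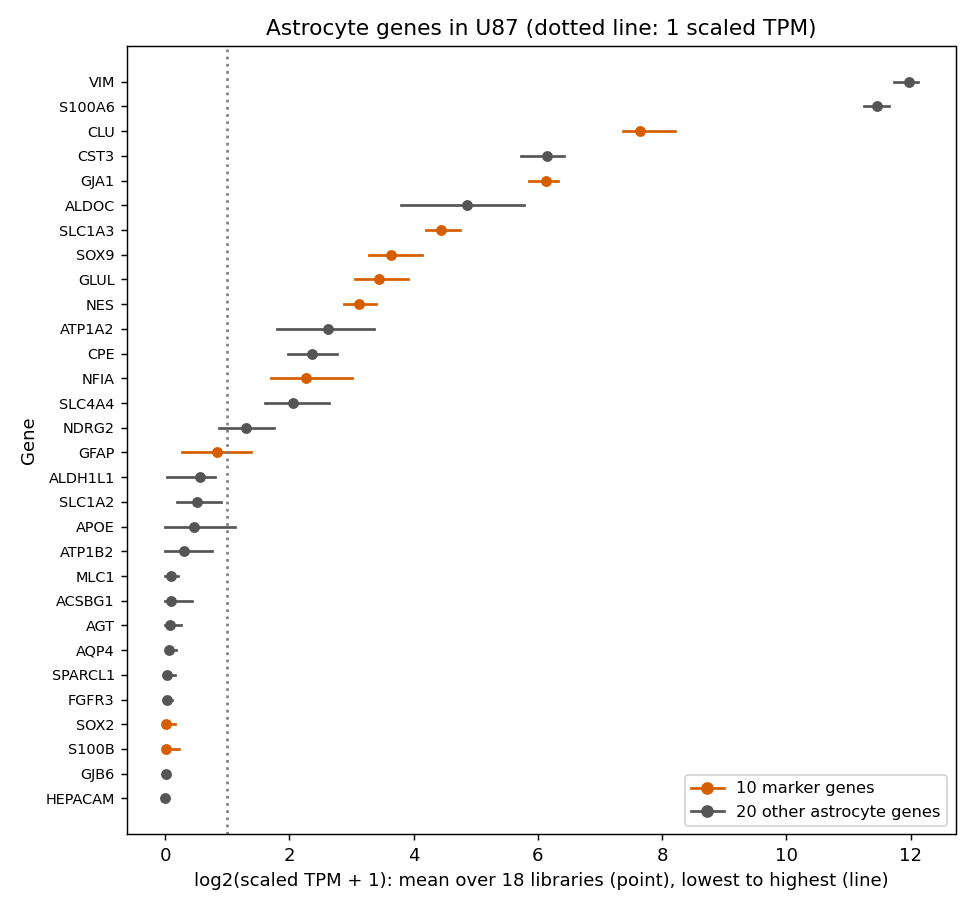
The horizontal axis is log2(scaled TPM + 1) for the 10 marker genes and 20 other astrocyte genes, with the mean over 18 libraries as a point and the lowest to highest library as a line. VIM and S100A6 stand above all 10 marker genes, and 12 of the 20 other astrocyte genes have means under 1 scaled TPM.

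No rexinoid changed any of the marker genes beyond the threshold. Genes were tested if they reached 1 TPM in at least 3 of the 18 libraries, which 8 of the 10 did; SOX2 and S100B did not. By limma on log2(scaled TPM + 1), with Benjamini-Hochberg adjustment over all 18269 genes and a threshold of 0.05, 0 of 8 passed with each of bexarotene, A34, A41, A80 and A98 against ethanol. Of all genes tested, bexarotene had 0.0547% past the threshold, A34 0.0821%, A41 0.755%, A80 0.0438% and A98 0.0328%, so 0 of 8 is near that background. At an unadjusted p under 0.05 the counts were 0, 2, 1, 0 and 0 of 8 in the same order, beside 5.75%, 10.7%, 10.3%, 9.43% and 6.63% of all genes. With the mean of the 5 rexinoids against ethanol 0 of 8 passed (0.203% of all genes did), and 0 of 8 had an unadjusted p under 0.05. The median log2 fold change of the 8 genes was 0.01 for bexarotene, 0.06 for A34, 0.17 for A41, 0.03 for A80 and 0.00 for A98, where over all genes it lay between -0.01 and 0.00. The 5 comparisons share the 3 ethanol libraries.

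The precision of these comparisons bounds the size of a change. All 40 intervals (8 genes, 5 rexinoids; 95%) lay within 2-fold of ethanol in either direction on the log2(scaled TPM + 1) scale, and 24 lay within 1.5-fold. The 24 included all 5 intervals of GJA1, SLC1A3 and NES, 4 of 5 for CLU and for SOX9, 1 of 5 for GLUL and none for NFIA and GFAP. That scale understates the change of low genes. With a pseudocount of 0.1 instead, 31 of the 40 lay within 2-fold, and GFAP had none of its 5 there, with limits from -1.56 to 1.65 in log2. For no rexinoid was a GFAP change beyond 2-fold excluded at this level and number of libraries.

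**Figure D3:**
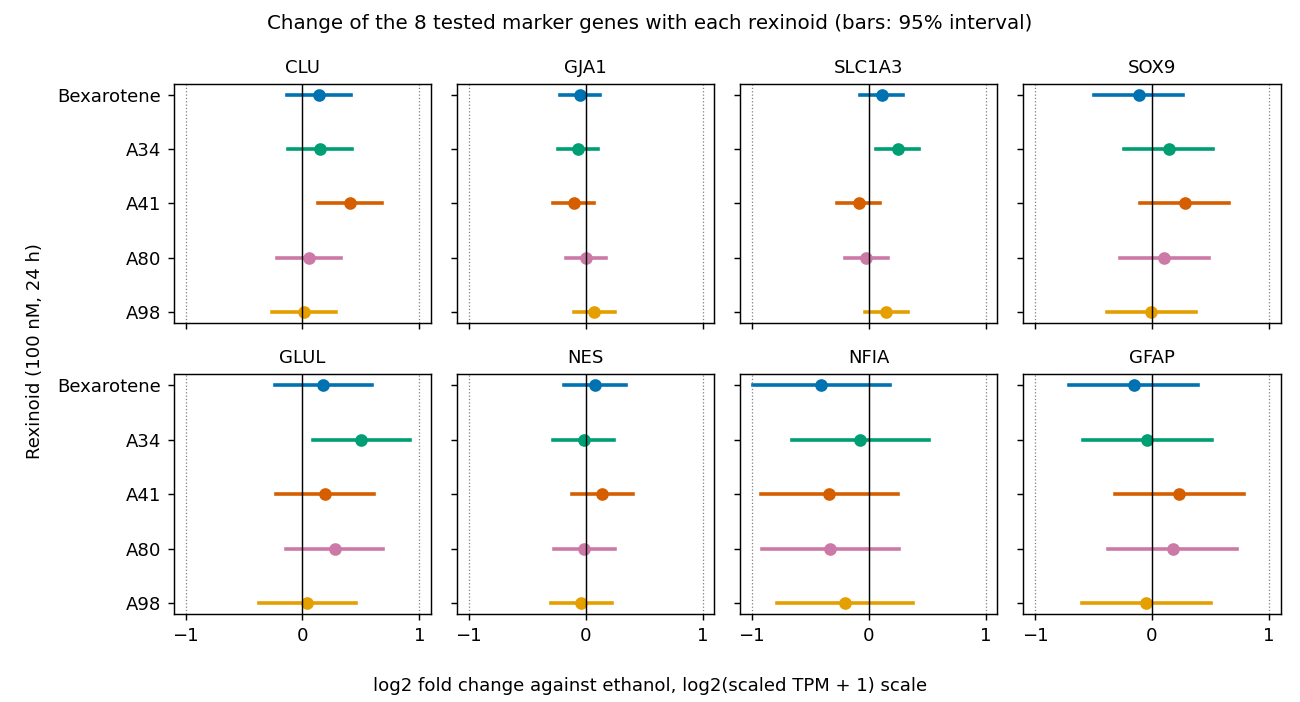
Each panel is 1 gene, the horizontal axis is the log2 fold change against ethanol on the log2(scaled TPM + 1) scale, points are estimates and bars their 95% intervals for 5 rexinoids; dotted lines mark 2-fold. GJA1 and SLC1A3 have narrow intervals, and those of NFIA and GFAP are the widest, reaching -0.99 for NFIA with bexarotene.

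GFAP, the intermediate filament protein that defines mature and reactive astrocytes (ENSG00000131095, chromosome 17, bases 44903159 to 44916937, minus strand), stood at 0.646, 0.811 and 0.688 scaled TPM in the ethanol libraries. It was 0.452, 0.681 and 0.496 with bexarotene, 0.993, 0.927 and 0.209 with A34, and 0.817, 1.43 and 0.857 with A41. With A80 it was 0.972, 1.16 and 0.705, and with A98 1.60, 0.392 and 0.263. All 3 A41 libraries lay above all 3 ethanol libraries, and groups apart in either direction made up 15.9% of all genes in that comparison, and the other 4 rexinoid groups overlapped ethanol. The A41 difference was 0.24 (SE 0.26, limma adjusted p = 0.80), the highest A41 value, 1.43, was that of the library with the most ribosomal RNA (difference 0.10 without it), and A98 alone spanned 0.263 to 1.60, wider than any difference between group means. GFAP passed the filter through 5 libraries, replicates 1 and 2 of A34 and of A80 and replicate 1 of A98. On the opposite strand CCDC103 (mean 3.99) and FAM187A (3.78) overlap GFAP, and whether counting used strand is not stated, so the level of GFAP is uncertain.

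S100B, a small calcium-binding protein of astrocytes (chromosome 21, bases 46598604 to 46605208), was listed at 0 in 17 of 18 libraries. The exception was bexarotene replicate 1, at 0.174 scaled TPM, which is 1 of the 3 libraries rich in ribosomal RNA; bexarotene replicates 2 and 3 were at 0. No fold change is given for it.

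NES encodes nestin, the intermediate filament of neural stem and progenitor cells (chromosome 1, bases 156668763 to 156677407, minus strand). Its libraries stood at 6.37, 7.48 and 8.72 in ethanol, and its group means ran from 7.27 ± 0.28 with A98 to 8.41 ± 1.3 with A41. The ethanol range covered every group mean. The difference from ethanol lay between -0.04 and 0.14 over the 5 rexinoids (SE 0.12, limma adjusted p from 0.72 to 0.99). Every NES library, from 6.37 up, lay above every GFAP library.

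SLC1A3 encodes the glial glutamate transporter EAAT1 (GLAST; chromosome 5, bases 36606355 to 36688334), and stood at 19.6, 19.2 and 20.5 in ethanol. It was 26.0, 23.4 and 21.6 with A34, all above ethanol, and 21.6, 22.1 and 22.4 with A98, also all above ethanol. It was 19.7, 22.1 and 22.5 with bexarotene, 17.5, 18.8 and 19.3 with A41 and 19.4, 21.6 and 17.5 with A80, groups that overlapped ethanol. Groups as separate as that made up 16.6% of all genes with A34 and 16.7% with A98. The A34 difference was 0.25 (SE 0.09, 95% interval 0.06 to 0.43, unadjusted p = 0.012 by limma, adjusted p = 0.32). With ribosomal RNA genes removed before scaling to TPM it was 0.12 (unadjusted p = 0.33 by limma). That setting lacks median-of-ratios scaling, and its median differences over all genes lay between -0.16 and -0.04. With that scaling kept, dropping the 3 ribosomal RNA-rich libraries gave 0.23 (unadjusted p = 0.037 by limma, adjusted p = 0.40). The replicate blocks gave 0.25 from titles and 0.23 from file numbers (limma adjusted p = 0.24 and 0.41). The A98 difference was 0.15 (interval -0.03 to 0.33, adjusted p = 0.79).

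GLUL encodes glutamine synthetase, which turns the glutamate taken up by astrocytes into glutamine (chromosome 1, bases 182378098 to 182392206). It stood at 7.76, 7.31 and 10.2 in ethanol and at 10.8 to 14.1 with A34 (mean 12.3 ± 1.7), so all 3 A34 libraries lay above ethanol. Groups apart in either direction made up 16.6% of all genes with A34. The A34 difference was 0.50 (SE 0.20, 95% interval 0.09 to 0.92, unadjusted p = 0.021 by limma, adjusted p = 0.38). Dropping the 3 ribosomal RNA-rich libraries gave 0.42, the block from file numbers 0.40 and removal of ribosomal RNA genes 0.39. Their unadjusted p by limma was 0.073, 0.073 and 0.089. With the block from titles the A34 difference stayed at 0.50 (unadjusted p = 0.016 by limma, adjusted p = 0.245). The other group means were 9.70 ± 2.0 with bexarotene, 9.94 ± 3.0 with A41, 10.3 ± 0.35 with A80 and 8.77 ± 2.2 with A98, and these groups overlapped ethanol. A41 alone ran from 7.60 to 13.3, nearly the whole range of the 18 libraries.

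GJA1 encodes connexin 43, the main gap junction protein of astrocytes (chromosome 6, bases 121435595 to 121449727). It was the steadiest of the set, at 73.3, 68.7 and 67.4 in ethanol and with group means from 65.1 ± 7.3 with A41 to 73.7 ± 4.6 with A98. Its SD over 18 libraries was 6.77% of the mean. The differences from ethanol lay between -0.10 and 0.08 (SE 0.08, limma adjusted p from 0.69 to 1.0), and all 5 intervals lay between -0.28 and 0.25. The lowest value, 56.8, was that of A41 replicate 2, the library with the largest share of ribosomal RNA.

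CLU encodes clusterin, a secreted chaperone made by astrocytes and by many stressed cells, and was the most abundant of the set. Its libraries stood at 194, 181 and 165 in ethanol and at 218, 296 and 209 with A41, all 3 above ethanol. Groups apart in either direction made up 15.9% of all genes with A41. The A41 difference was 0.40 (SE 0.13, 95% interval 0.13 to 0.68, unadjusted p = 0.0067 by limma, adjusted p = 0.24), the smallest adjusted p of the 40. The 2 highest values of all were those of A41 replicate 2 (296) and bexarotene replicate 1 (236), both rich in ribosomal RNA, while ethanol replicate 2, the remaining library of that kind, was at 181. Without those 3 libraries the A41 difference was 0.25 (limma adjusted p = 0.50). With ribosomal RNA genes removed it was 0.23, and with TPM as deposited 0.06, both without median-of-ratios scaling. The other groups overlapped ethanol, with 236, 184 and 178 for bexarotene, 217, 206 and 178 for A34, and means of 187 ± 6.6 for A80 and 182 ± 11 for A98.

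**Figure D4:**
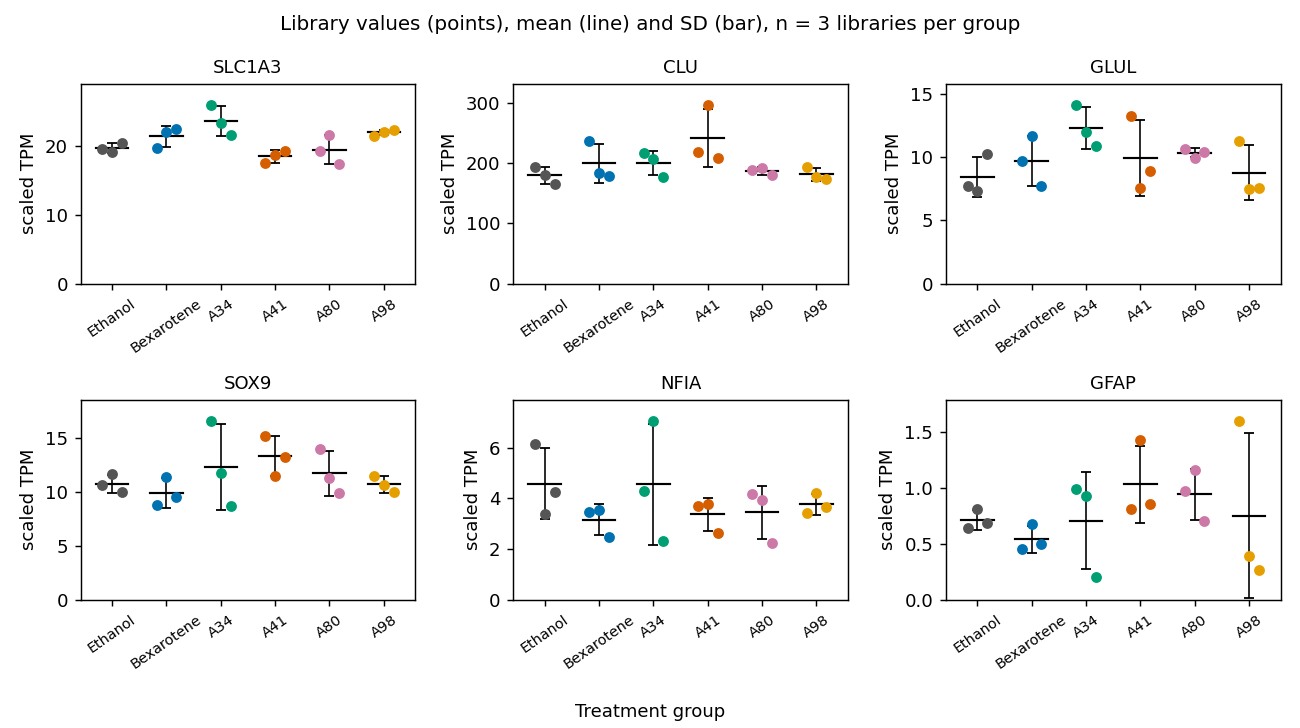
Each panel is 1 gene with scaled TPM on the vertical axis from 0; points are libraries, lines the means and bars the SD of 3 libraries per treatment. The A34 libraries of SLC1A3 and GLUL and the A41 libraries of CLU lie above the ethanol libraries. Groups apart in either direction made up 16.6% of all genes with A34 and 15.9% with A41. For GFAP, 1 A98 library at 1.60 lies far above the other A98 libraries.

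Of the transcription factors, SOX2 was nearly silent. SOX2, a factor that maintains neural stem cells (chromosome 3, bases 181711925 to 181714436, 1 exon), was listed at 0 in 3 libraries, replicate 3 of A34, A41 and A98, and at no more than 0.0316 in 14 others. From coverage and the 2512 bases of the gene, 17 of the 18 libraries held fewer aligned bases than a single read of 150 (0 to 64.0). The exception was A41 replicate 1, at 0.118 scaled TPM or 532 aligned bases, and A41 replicates 2 and 3 were at 0.0316 and 0. SOX2 lies inside SOX2-OT, a noncoding RNA on the same strand that averaged 2.17 scaled TPM. No fold change is given for SOX2.

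SOX9, which directs glial fate in the developing nervous system (chromosome 17, bases 72121020 to 72126416), was expressed in all 18 libraries, at 10.6, 11.7 and 9.97 in ethanol. It was 16.6, 11.8 and 8.68 with A34, so that the highest and the lowest library of the whole series were of the same treatment. With A41 it was 15.2, 11.5 and 13.3, overlapping ethanol (difference 0.28, SE 0.18, limma adjusted p = 0.61; -0.02 with TPM as deposited), and the other differences from ethanol lay between -0.11 and 0.14.

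NFIA, a nuclear factor I protein that switches neural progenitors to astrocyte production (chromosome 1, bases 60865259 to 61462788), stood at 6.13, 3.40 and 4.24 in ethanol. Its estimates were below ethanol with all 5 rexinoids, from -0.07 with A34 to -0.41 with bexarotene, but none passed (SE 0.27, limma adjusted p from 0.71 to 0.95) and every group overlapped ethanol. The bexarotene libraries were at 3.48, 3.54 and 2.47 against the ethanol minimum of 3.40. The 5 estimates share the ethanol libraries, of which replicate 1 at 6.13 was the second highest of all 18 after A34 replicate 2 at 7.06. Without that ethanol library the difference was 0.12 with A34, -0.01 with A98 and -0.22 with bexarotene.

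The compounds were given at the same dose and time, so they could also be set against each other in 10 pairs. Of the 8 genes, 0 passed in each pair by limma. Over all genes 0.0% passed for A34 or A80 against bexarotene and for A80 against A34, 0.00547% for A98 against bexarotene, A34 or A80, 0.0712% for A41 against A34, 0.115% for A41 against bexarotene, 0.126% for A80 against A41 and 0.131% for A98 against A41. An unadjusted p under 0.05 was reached by 9 of the 80 gene and pair values (11.2%), beside 5.94% over all genes and pairs. Groups that did not overlap numbered 13 of the 80: NES for A34 against bexarotene (8.68% of all genes), SLC1A3, SOX9 and GFAP for A41 against bexarotene (9.89%), GFAP for A80 against bexarotene (11.4%), NES for A98 against bexarotene (14.7%), SLC1A3 for A41 against A34 (9.79%), SLC1A3 and GLUL for A80 against A34 (7.5%), GJA1 for A98 against A34 (10.4%), CLU for A80 against A41 (10.7%), and SLC1A3 and CLU for A98 against A41 (12.2%). None did for A98 against A80 (10.5%). All 80 intervals lay within 2-fold and 50 within 1.5-fold, which covered all 10 pairs for SLC1A3, NES and GJA1. SLC1A3 had the smallest p of the pairs: it was lower with A41 than with A34 by 0.33 (SE 0.09, 95% interval -0.52 to -0.15), and the 3 A41 libraries lay below the 3 A34 libraries. In limma that difference had an unadjusted p = 0.0015, an adjusted p = 0.015 over the 10 pairs for SLC1A3, and an adjusted p = 0.31 over all genes. The adjustment over the 10 pairs does not cover the choice of SLC1A3 among the 8 genes. It was -0.74 with TPM as deposited. The SLC1A3 differences for A80 against A34 (-0.27) and for A98 against A41 (0.24) were smaller. Their limma adjusted p was 0.034 and 0.051 over the 10 pairs and 1.0 and 0.58 over all genes. The limma F test across the 5 rexinoids called 0 of 8 (0.0657% of all genes). SLC1A3 was the 1 gene of 8 with an unadjusted p under 0.05 there (6.32% of all genes), at 0.010 before and 0.59 after adjustment. The structures of the coded compounds are not given in the labels, and a p that misses the threshold does not show that they act alike.

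Genes that work with these markers were counted in 6 lists. Of 24 further glioma stem and progenitor genes, 15 were tested, and CD44, the hyaluronan receptor used to mark mesenchymal and stem-like glioma cells, fell with A41, the 1 call among the 15 (0.755% of all genes were called with A41). It stood at 1216, 1074 and 1156 in ethanol and at 864, 855 and 935 with A41, with no overlap, as in 15.9% of all genes (difference -0.38, SE 0.08, limma adjusted p = 0.027). Against the same ethanol libraries its differences were -0.18 with bexarotene, -0.18 with A34, -0.17 with A80 and -0.23 with A98, each with an unadjusted p under 0.05 and a limma adjusted p of 0.41 to 0.84. It was the most abundant gene of that list, with a mean of 1009. The call was lost without ethanol replicate 1 (0.14) or 3 (0.13), without A41 replicate 1 (0.090), 2 (0.11) or 3 (0.052), with the 3 ribosomal RNA-rich libraries omitted (0.12), with only those 2 groups in the model (0.33), with a block on the replicate numbers of the deposited tables (0.059), and with TPM as deposited (0.82). The call was kept with pseudocounts of 0.1 and 5 (limma adjusted p = 0.027 and 0.028), no filter (0.044) and a filter of 5 TPM (0.016). It was also kept with ribosomal RNA genes removed (0.016), the replicate block from titles (0.029), limma without trend (0.039) and without ethanol replicate 2 (0.039). The difference itself was -0.33 to -0.42 with single libraries left out and -0.40 with the 3 ribosomal RNA-rich libraries omitted. The other 14 tested genes of the list did not pass with any rexinoid; PROM1, which encodes the stem cell antigen CD133, averaged 0.0351, and the neural progenitor factor POU3F2 0.153. The median change of the list was -0.17 with A41 and lay between -0.15 and -0.02 with the others.

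The other lists held no call against ethanol with any of the 5 rexinoids. They were the astrocyte genes (8 of 20 tested, smallest limma adjusted p = 0.11, CST3 with A41) and the SOX and NFI family (9 of 15, 0.40). A further list held genes linked to GFAP transcription, such as STAT3 and BMP receptors (17 of 20, 0.35). The rest were glutamate and glutamine handling and gap junctions (13 of 13, 0.16) and glial filament partners (3 of 8, 0.18). Of NFIA's relatives, NFIC averaged 91.3, NFIX 53.2 and NFIB 10.9 scaled TPM, all above NFIA at 3.82. SOX4 averaged 2.36, SOX12 5.96 and SOX13 3.66, and SOX1, SOX3 and SOX21, relatives of SOX2, stayed at 0.0179, 0.0202 and 0.0296. Levels in the list linked to GFAP transcription were mixed. IL6ST, the shared receptor of the LIF family, averaged 76.8, JAK1 69.5, STAT3 28.1 and LIFR 10.7. BMPR1B averaged 0.547, LHX2 0.319 and CNTFR 0.0134. SOCS3, on the same list, averaged 31.2. SLC38A2, a transporter of glutamine and other neutral amino acids and the most abundant gene of its list, averaged 164.8 and differed by -0.41 with A41 (limma adjusted p = 0.21). The neuronal glutamate transporter gene SLC1A1 averaged 18.6, close to SLC1A3 at 20.8.

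The SD within groups on the log2(scaled TPM + 1) scale was 0.09 for GJA1 and 0.10 for SLC1A3, lower than in most genes of like level (23.6% and 14.3% of the 1000 nearest genes had a smaller SD), and NES at 0.14 was likewise low (19.6%). CLU (0.17), SOX9 (0.23), GLUL (0.26) and NFIA (0.36) were in the upper part, with 73.1% to 78.2% of the nearest genes having a smaller SD. GFAP at 0.31 was near the middle (42.3%). For GJA1 the highest and lowest group means differed by 0.18, and for NFIA by 0.41.

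**Figure D5:**
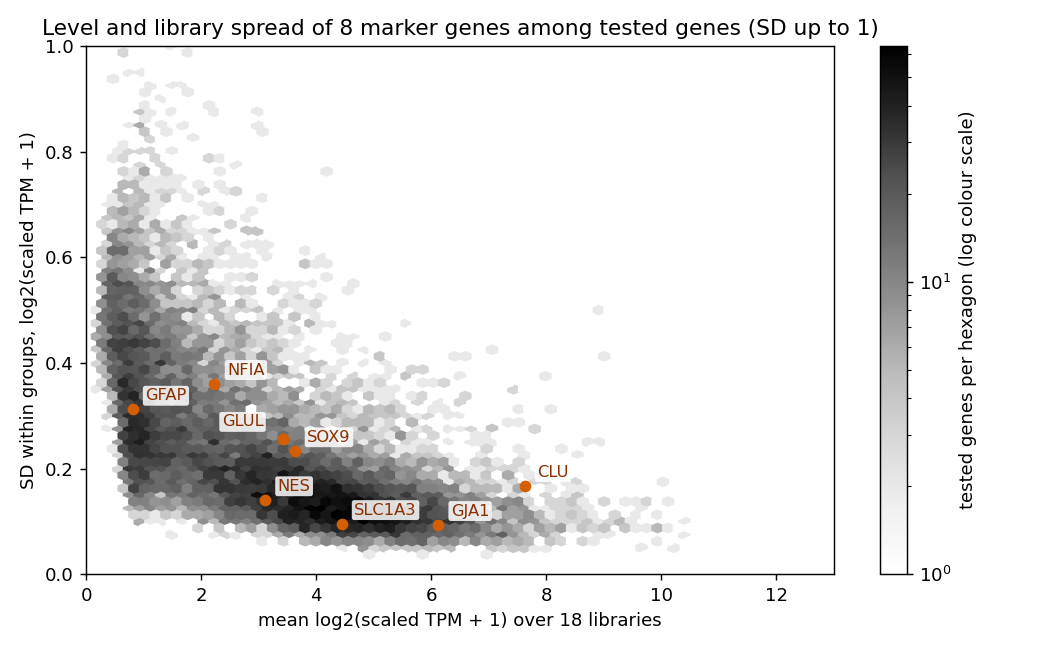
The horizontal axis is mean log2(scaled TPM + 1) over 18 libraries and the vertical axis the SD within groups on the same scale; grey hexagons count tested genes and points mark the 8 marker genes. GJA1, SLC1A3 and NES sit low for their level, and CLU, GLUL, SOX9 and NFIA sit high.

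The genes whose levels followed each marker most closely were taken by Pearson's r over the 18 libraries, as the highest 3 of all tested genes, so a high r is partly due to the choice. For CLU they were MT2A (r = 0.89), CD74 (0.88) and ITPR3 (0.87), for SOX9 NSD3 (0.87), LHFPL2 (0.86) and AC005632.3 (0.83), and for GJA1 PKN2 (0.85), TMED8 (0.82) and ZMPSTE24 (0.81). For NES they were SART1 (0.84), SNRNP70 (0.83) and IQSEC2 (0.81), and for GLUL MOSPD3 (0.82), BVES (0.82) and CHD1L (0.79). For SLC1A3 they were LINC00667 (0.76), SNORA15B-2 (0.73) and AC131254.1 (0.72), and for NFIA BTBD16 (0.79), MT-TD (0.76) and UCN (0.74). For GFAP they were AC002553.2 (0.79), MNT (0.76) and NFKB2 (0.74). The libraries share depth and ribosomal RNA content with these values, and none of the genes named here is among the 10 markers or in the 6 lists.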

How the data were processed

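Each of the 18 libraries had 1 deposited table of StringTie gene abundances; STAR, StringTie, MultiQC and GRCh38 are named in the submitters' processing notes, without versions, annotation release or strand handling. TPM was computed by the authors, per the file headers, as was FPKM, which stood in the same deposited tables. Coverage, the deposited mean signal in reads per base, was used with FPKM in genes with 1 transcript to read the depth. Entries repeating a gene ID (2 to 3 per library) were summed. TPM was divided by median-of-ratios factors from 16349 genes. Without read counts, no count model applied. Limma 3.58.1 (R 4.3.3) was run on log2(scaled TPM + 1), all 18 libraries and 6 groups in 1 model (12 residual degrees of freedom, trend on mean level), two-sided, for 18269 genes, after a test on simulated data. Gene types and overlaps are from GENCODE 29. Samples were grouped by title, and no 2 libraries were identical (0 pairs). The ribosomal RNA share is the summed TPM of ribosomal RNA genes and of entries inside ribosomal DNA repeats. The rule for named genes took the 10 markers throughout, list genes past the threshold with each list's most abundant gene, and the 3 closest genes by correlation; other list genes were named after their values were seen. Members and lists were chosen with earlier results of these data known. Results for some genes of the lists are not reported here.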

Additional observations from a re-analysis of the deposited data

How the results depend on the processing

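The number of marker genes past the threshold was 0 in every comparison under all 12 alternatives: pseudocounts of 0.1 and 5, no filter, a filter of 5 TPM, TPM as deposited, TPM without ribosomal RNA genes, 2 replicate blocks, omission of the libraries rich in ribosomal RNA, limma without trend, only the groups compared, and omission of each library. Replicate numbers were not taken as pairs, since nothing in the labels ties them. Deviations of same-numbered libraries correlated between -0.356 and 0.307, above 0.1 in 11 of 45 pairs against 7 of 90 with different numbers. By file number it was 9 of 36 against 9 of 99. Same-numbered libraries thus passed 0.1 more often, and whether they share a culture or a batch was not tested. With the replicate block from titles, 0 markers passed and the smallest limma adjusted p was 0.12 (CLU with A41), while the number of all genes called rose from 15 to 166 for A34, from 8 to 117 for A80 and from 138 to 197 for A41. With the block from file numbers 57, 51 and 116 genes were called. Without the 3 libraries rich in ribosomal RNA 2, 10, 48, 2 and 6 genes were called for bexarotene, A34, A41, A80 and A98, with TPM as deposited 0, 0, 4, 0 and 2, and with only the groups compared 4, 1, 33, 0 and 4, against 10, 15, 138, 8 and 6. Without ribosomal RNA genes the counts were 6, 7, 109, 3 and 5, and with no filter 19, 17, 115, 13 and 11. Leaving out 1 library gave 5 to 9, 8 to 18, 71 to 113, 2 to 7 and 5 to 8. Across all genes the median difference from ethanol lay at -0.27 to 0.15 with deposited TPM, and 15 of the 40 marker differences changed sign there, among them SLC1A3, GLUL and CLU with bexarotene and SOX9 with A41. With A41, CLU moved from 0.40 to 0.06 there and GFAP from 0.24 to 0.07. Of 675 alternative values of the 8 markers against ethanol 60 changed sign, 1 of them among the 119 whose reported size was at least 0.25; none was past the threshold. SOX2 and S100B were too low to be tested.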
